A study of Arabidopsis thaliana with 18 samples.

Results

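The genes described here are 53 *Arabidopsis thaliana* genes whose transcripts were high in seed coats and endosperms of wild-type (WT) seeds at 13 days after pollination (DAP). On the scale defined below, they stayed near their 11 DAP level when the seeds spent the last 48 h in the cold. They were chosen from the counts. Counts were divided by the column sum and scaled to a total of 1 M to give CPM, and differences were taken on the scale log2(group mean CPM + 1). A gene was included if WT 13 DAP exceeded WT 11 DAP by at least 2, if WT 48 h cold exceeded WT 11 DAP by at most 0.5, and if the lowest 13 DAP library lay above the highest 48 h cold library. Of 37861 nuclear genes, 26954 had a count and 288 (1.07% of those with a count) met the age limit. Of these 288 genes, 58 also met the cold limit, 5 of which were dropped because libraries overlapped, leaving 53. A further 111 of the 288 genes were at least 2 higher in WT 48 h cold than in WT 11 DAP, and 119 lay between the cold limits.

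RNA was sequenced from hand-dissected seed coats with endosperm, in 6 groups of 3 libraries, all of the Col accession. The *myb107-2* 48 h cold group (*myb107-2* 11 DAP+Cold) and the *myb107-2* 11 DAP group came from plants with a mutant allele of *MYB107*, which encodes a MYB transcription factor of seed coat suberin. The other groups came from WT plants: 13 DAP without cold, 11 DAP followed by 48 h of cold (11 DAP+Cold), 11 DAP followed by 6 h of cold, and 11 DAP. Plants grew at 22 °C. The labels give 13 °C for the cold treatment, and the main text of the paper names a lower one for the transfer at 11 DAP. A library holds the pooled seeds of several siliques and plants. WT 13 DAP seeds were as old as seeds sampled after 48 h of cold, and *myb107-2* seeds at 13 DAP were not analysed here. Seed coat and endosperm were sequenced together, so a change in the share of one tissue and a change of RNA within it cannot be told apart, nor can fewer cells and less RNA per cell.

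As background, the seed coat and endosperm stop growing and mature while the embryo fills. Outer cell layers deposit suberin and cutin, polyesters of hydroxylated fatty acids and glycerol that are assembled by cytochromes P450, acyltransferases, fatty acid reductases and lipid transfer proteins. The endosperm stores oil in droplets coated by oleosins, caleosins and steroleosins. Low temperature slows development, and it also alters seed dormancy through the maternal seed coat.

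Library totals ranged from 43.1 M to 84.0 M counts, with a median of 65.4 M. The 12 genes of the ribosomal RNA units took 47.0% of the counts of WT 13 DAP replicate 1, against 6.00% to 16.5% in the other libraries. Column sums therefore understated other genes in that library: over genes averaging at least 1 CPM, the median log2 difference of WT 13 DAP against WT 11 DAP was -0.40 by column sums and 0.02 with TMM scaling (trimmed mean of M-values, as used in edgeR). All levels below are TMM-scaled CPM, and only the differences that selected the genes use column sums. CPM is not divided by gene length. With TMM scaling in the selection, 94 genes would have been chosen, including all 53. Membership also depended on the pseudocount: 0.5 in place of 1 gave 76 genes, 46 of them among the 53, and 5 gave 34 genes, 18 of them among the 53. WT 6 h cold replicate 1 also stood apart, with 46 genes at 0 that had at least 100 counts in all other libraries, against at most 4 such genes in any other library. *MYB107* itself had 5.71, 4.15 and 3.79 CPM in *myb107-2* 48 h cold and 2.37, 2.82 and 3.84 CPM in *myb107-2* 11 DAP, against 27.8 to 62.0 CPM in the 12 WT libraries. Of the embryo markers, *WUS* and *CUC2* were listed at 0 in all libraries, and *CUC1* gave nearly all of the summed level. Of the endosperm markers, *IKU2* and *WRKY10* were listed at 0 in all libraries. All 11 seed coat markers had counts.

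The differences that chose the genes are given as a description and were not tested. WT 13 DAP exceeded WT 11 DAP by 2.00 to 6.86, with a median of 2.77. WT 48 h cold differed from WT 11 DAP by -0.57 to 0.49, with a median of 0.11, and was higher for 28 genes, lower for 14 and equal for 11. These 11 genes were listed at 0 in the 6 libraries of WT 48 h cold and WT 11 DAP. The added 1 CPM compresses differences between low levels, so a small difference on this scale can be a large ratio. In TMM-scaled CPM, *BGLU19* averaged 0.160 in WT 11 DAP and 0.600 in WT 48 h cold. AT4G13680 averaged 0.0231 and 0.214 in these groups, and *SRO4*, in the other direction, 0.313 and 0. On the TMM scale, the median level in WT 48 h cold was 4.46% of that in WT 13 DAP and the highest was 17.7%. Just inside the age limit were AT2G29300 (2.00), *GDH3* (2.03) and *ARPN* (2.03), and just outside it *P1R1* (1.97), AT3G26770 (1.95) and AT1G77730 (1.94). Just inside the cold limit were *BGLU19* (0.488), *ARPN* (0.484) and *HSD5* (0.455), and just outside it AT3G42180 (0.502), AT3G23180 (0.514) and *DSI-1VOC* (0.538). The 5 genes dropped for overlap were AT1G25175, *YCF37*, *ABCA8*, *TGG1* and *AHG1*.

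**Figure D1:**
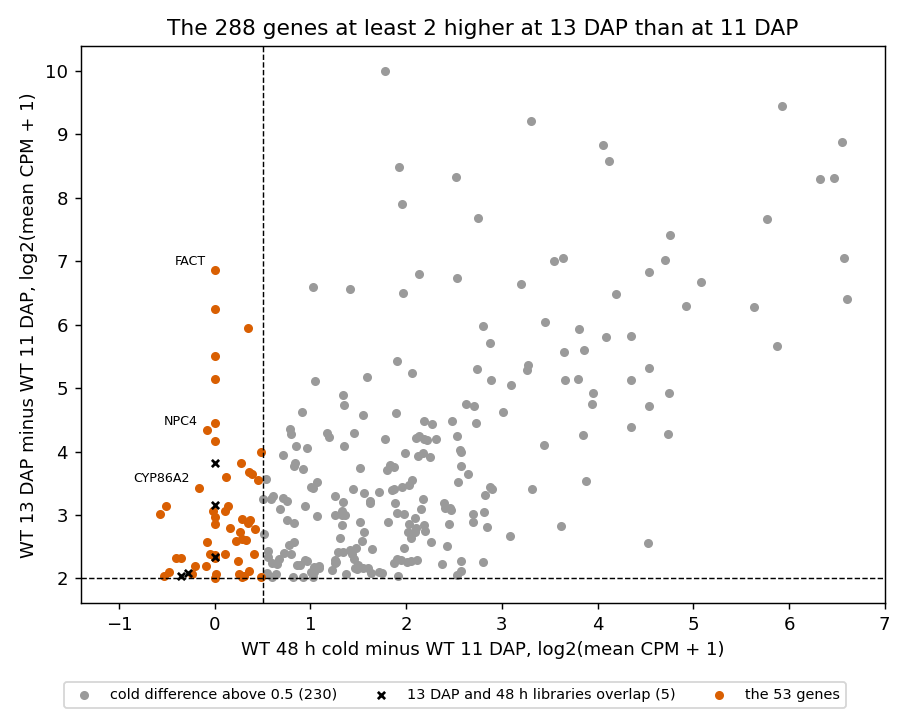
The 288 genes at least 2 higher in WT 13 DAP than in WT 11 DAP, by the 2 differences used in the selection (log2 of group mean CPM + 1, column sums); points are genes and dashed lines are the limits. The 53 genes lie left of 0.5 on the horizontal axis, between -0.57 and 0.49.

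Of the 53 genes, 52 encode proteins and 1 (AT4G40065) is a non-coding RNA. They lie on all 5 chromosomes (10, 13, 11, 11 and 8 genes on chromosomes 1 to 5), and the phospholipase genes *NPC4* and *NPC5*, 1125 bases apart, were the sole neighbouring pair. By the words of their annotation, 9 genes (16.98%) fell in the class of lipid, suberin and cutin genes, against 2.59% of all genes with a count. Oil body and storage genes numbered 3 (5.66%, against 0.252%), secondary metabolism genes 5 (9.43%, against 2.25%) and cell wall genes 4 (7.55%, against 2.05%). Transcription factors numbered 3 (5.66%, against 5.05%), and 9 genes (16.98%, against 24.0%) were of unknown function. Matching by words placed the cupin gene AT1G50590 among the oil body and storage genes. It likewise placed the zinc finger gene AT5G44260 among the transcription factors. *DOX1*, annotated as a peroxidase and grouped below with lipid turnover, was counted among the cell wall genes. *SRO4*, grouped below with the regulators, was counted as of unknown function. No gene annotated as a protease, nuclease or heat shock protein was present. Of all genes with a count, 2.35% fell in the class of proteases and nucleases and 0.857% in that of heat shock proteins and chaperones. In WT 13 DAP, 6 genes averaged at least 100 CPM, 31 between 10 and 100 CPM and 16 below 10 CPM.

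**Figure D2:**
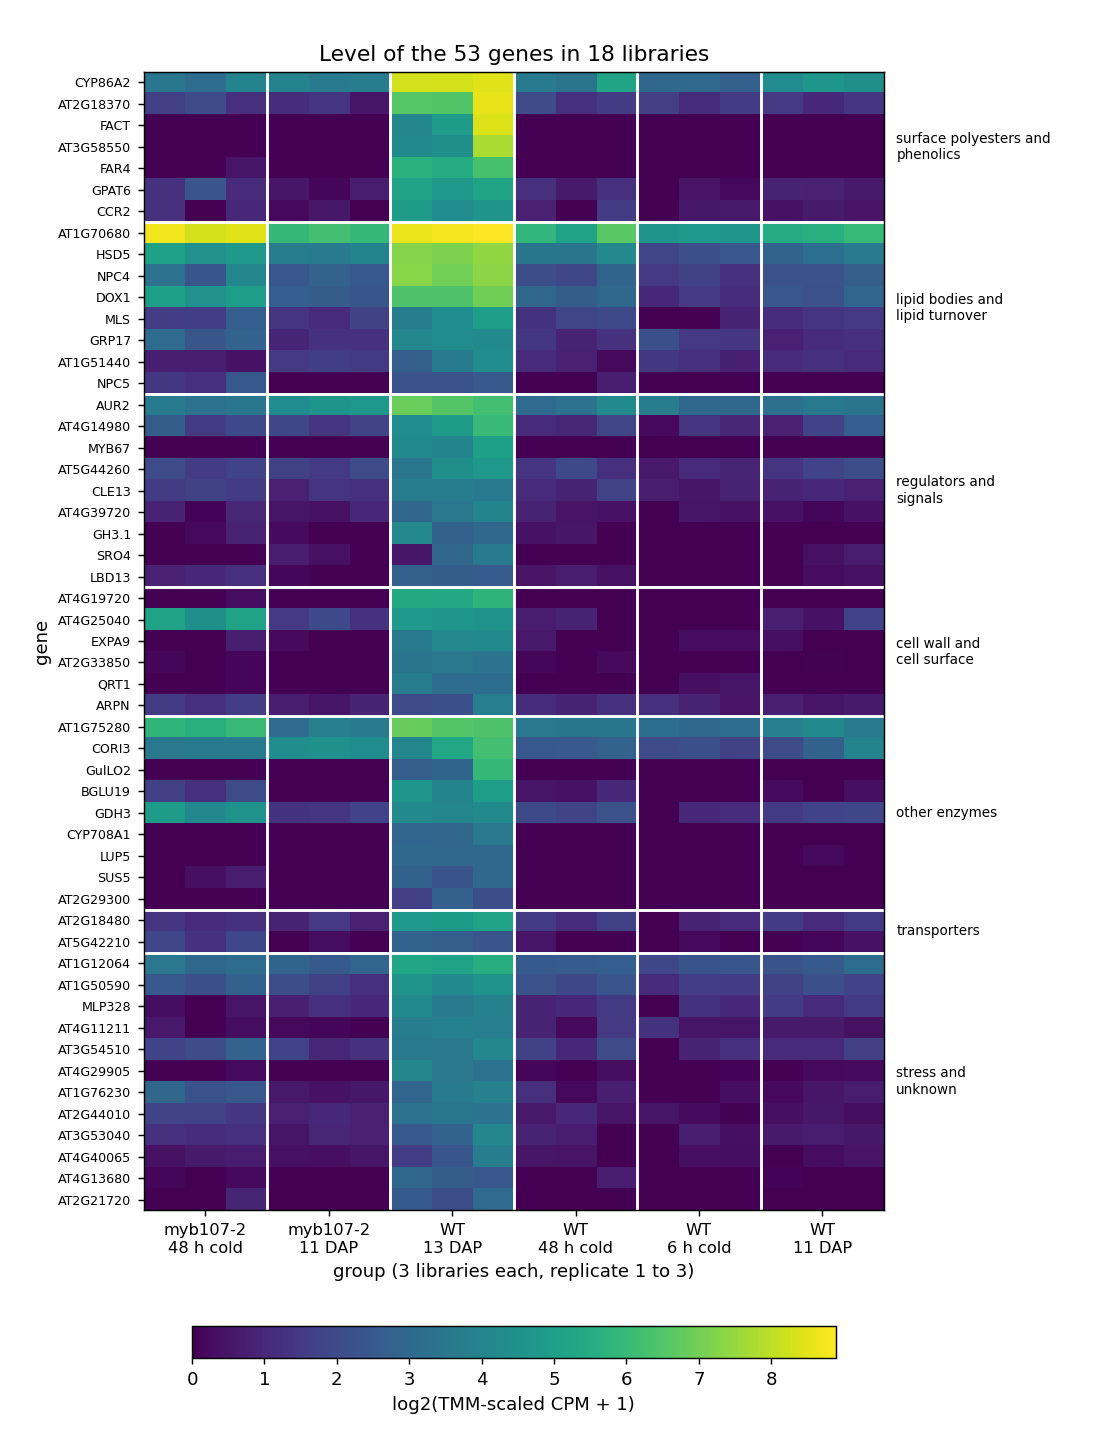
Level of each of the 53 genes (vertical axis, grouped by role) in each of the 18 libraries (horizontal axis, 3 per group), as log2(TMM-scaled CPM + 1), with brighter colours for higher levels. The WT 13 DAP columns are the brightest for most genes, and several genes, among them *AT1G70680*, *GDH3* and *AT4G25040*, are also bright in *myb107-2* 48 h cold.

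Genes of surface polyesters and phenolics formed a first group of 7. *CYP86A2*, a fatty acid hydroxylase of cutin synthesis, had 314, 320 and 355 CPM in WT 13 DAP, against 11.7, 9.79 and 35.8 CPM in WT 48 h cold and 18.5, 24.3 and 20.7 CPM in WT 11 DAP. It was listed at 10.3, 8.04 and 15.2 CPM in *myb107-2* 48 h cold and at 14.8, 11.9 and 12.7 CPM in *myb107-2* 11 DAP. The lowest WT 13 DAP library was thus at 314 CPM and the highest other library at 35.8 CPM. *GPAT6*, an acyltransferase of cutin synthesis, averaged 31.8 ± 4.76 CPM in WT 13 DAP, 1.08 ± 0.458 CPM in WT 48 h cold and 0.723 ± 0.148 CPM in WT 11 DAP (SD, n = 3). *CCR2*, a cinnamoyl-CoA reductase of the lignin pathway, averaged 23.6 ± 4.93 CPM in WT 13 DAP, against 0.888 ± 0.969 CPM in WT 48 h cold and 0.424 ± 0.110 CPM in WT 11 DAP (SD, n = 3).

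Both suberin enzymes of the group were listed at 0 in WT 48 h cold and WT 11 DAP. *FAR4*, a reductase that makes fatty alcohols, had 50.1, 44.1 and 77.3 CPM in WT 13 DAP and was listed at 0 in 14 of the 15 other libraries, with 0.423 CPM in *myb107-2* 48 h cold replicate 3. Its level in WT 13 DAP was at least 1189-fold higher than 3 counts per library would give in WT 48 h cold. This and the other folds against 3 counts hold only if a listed 0 stands for fewer than 3 counts and is not a failed estimate. *FACT*, which joins caffeic acid to fatty alcohols, had 16.5, 29.4 and 344 CPM in WT 13 DAP and was listed at 0 in all 15 other libraries. The lipid transfer protein genes AT3G58550 (18.1, 20.7 and 217 CPM) and AT2G18370 (94.9, 88.0 and 383 CPM) also had replicate 3 far above the other WT 13 DAP libraries. AT3G58550 was at 0 in all other libraries, and AT2G18370 averaged 2.14 ± 0.923 CPM in WT 48 h cold and 1.496 ± 0.399 CPM in WT 11 DAP (SD, n = 3).

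WT 13 DAP replicate 3 gave the highest of the 3 values for 34 of the 53 genes (64.2%), against 35.7% of the other 235 age-induced genes and 36.8% of 17214 genes averaging at least 1 CPM in that group. The ratio of replicate 3 to replicate 1 reached 5 for 5 of the 53 genes: *SRO4* (27.7), *FACT* (20.9), AT3G58550 (11.998), *GulLO2* (10.9) and AT4G40065 (6.06). For these genes other than *SRO4* the mean in WT 13 DAP rests largely on 1 library. *SRO4* had 0.436, 6.58 and 12.1 CPM there, so that its ratio reflects a low replicate 1. The size of the difference is uncertain for all 5 genes. Replicate 3 also stood far above the others for AT2G18370 and *ARPN*, with ratios of 4.04 and 4.06. Without WT 13 DAP replicate 3 the selection gave 38 genes, 37 of them among the 53, and without replicate 1 it gave 76, including all 53.

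By the cold limit, the other listed suberin genes that met the age limit were not held back. This limit measures the rise from WT 11 DAP and not the shortfall against WT 13 DAP. On a list of 24 suberin genes and their MYB factors, compiled with earlier results of these data known, 12 met the age limit, 8 of these were at least 2 higher in WT 48 h cold than in WT 11 DAP, and 2 (*FAR4* and *FACT*) were among the 53 genes. For comparison, *GPAT5*, an acyltransferase of suberin, averaged 182 CPM in WT 13 DAP, 27.0 CPM in WT 48 h cold and 0.244 CPM in WT 11 DAP. All 8 genes at least 2 higher in WT 48 h cold still averaged less there than in WT 13 DAP. They ran from *CYP86A1* (5.59 against 268 CPM) to *ABCG6* (81.4 against 147 CPM).

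**Figure D3:**
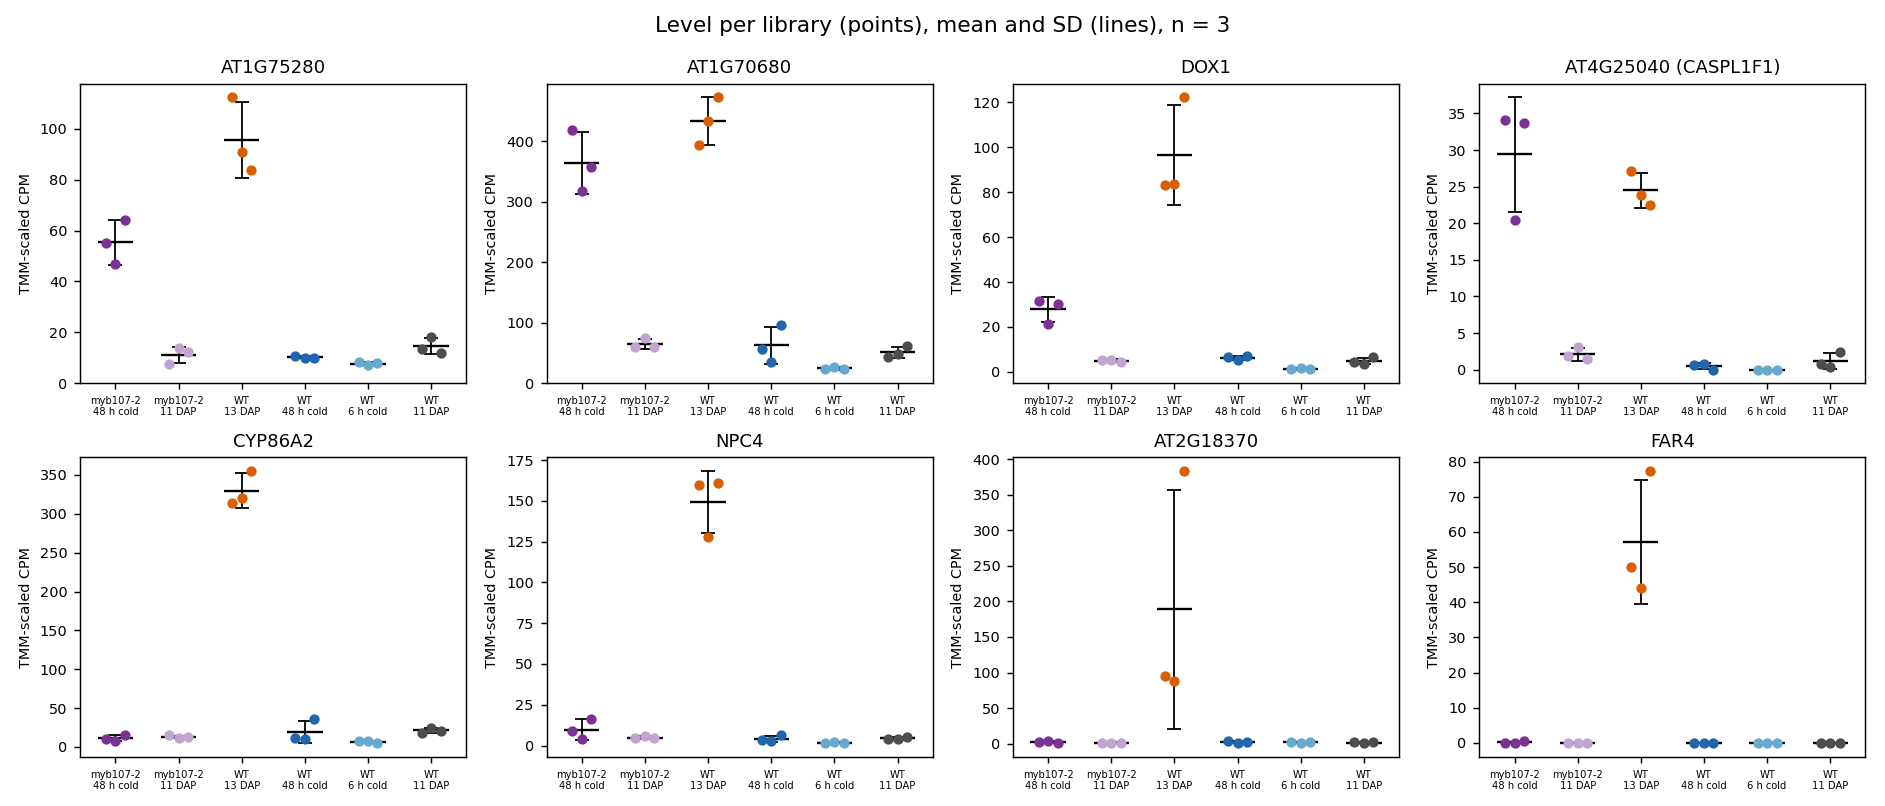
TMM-scaled CPM (vertical axes) of 8 of the genes in the 6 groups: points are libraries, horizontal lines are means and bars are SD (n = 3). *AT1G75280*, *AT1G70680*, *DOX1* and *AT4G25040* are higher in *myb107-2* 48 h cold than in *myb107-2* 11 DAP, whereas *CYP86A2*, *NPC4*, *AT2G18370* and *FAR4* are high in WT 13 DAP alone.

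Lipid bodies and lipid turnover were represented by 8 genes. AT1G70680, a caleosin-related gene, had 395, 434 and 473 CPM in WT 13 DAP, against 56.7, 34.5 and 96.2 CPM in WT 48 h cold and 42.9, 48.2 and 61.5 CPM in WT 11 DAP. *HSD5*, a steroleosin-type hydroxysteroid dehydrogenase, had 153, 141 and 171 CPM in WT 13 DAP, against 9.99, 9.65 and 17.1 CPM in WT 48 h cold and 6.14, 8.58 and 11.5 CPM in WT 11 DAP. *NPC4*, a phospholipase C that splits membrane phospholipids, had 159, 128 and 161 CPM in WT 13 DAP, against 3.28, 2.68 and 6.31 CPM in WT 48 h cold and 3.86, 3.84 and 5.49 CPM in WT 11 DAP. In these 3 genes the WT 48 h cold and WT 11 DAP libraries overlapped. *DOX1*, a dioxygenase of fatty acids, averaged 96.5 ± 22.4 CPM in WT 13 DAP, 6.26 ± 1.01 CPM in WT 48 h cold and 4.78 ± 1.51 CPM in WT 11 DAP (SD, n = 3). The other 4 genes, *MLS* (malate synthase of the glyoxylate cycle), *GRP17* (an oleosin-domain protein known from the pollen coat), *NPC5* and AT1G51440 (*DALL2*, a lipase-like protein), averaged 4.10 to 20.6 CPM in WT 13 DAP and 0.221 to 2.32 CPM in WT 48 h cold.

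Of 12 listed oil body genes, 2 met the age limit and 1, *HSD5*, was among the 53. The age limit was met by 1.07% of all genes with a count. Of 28 late embryogenesis abundant (LEA) genes, whose products protect drying cells, 8 met the age limit and 5 of these were at least 2 higher in WT 48 h cold as well. The single LEA gene among the 53, AT3G53040, had 4.63, 5.89 and 15.9 CPM in WT 13 DAP, against 0.838, 0.621 and 0 CPM in WT 48 h cold and 0.555, 0.600 and 0.497 CPM in WT 11 DAP. None of the listed storage protein genes, seed coat cell death proteases, maturation regulators, abscisic acid (ABA) genes, small heat shock proteins or chlorophyll breakdown genes was among the 53. These lists hold 8 to 21 genes each, where 53 of the 26954 genes with a count were selected.

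Regulators and signals numbered 9. *MYB67*, a MYB transcription factor, had 17.9, 15.3 and 31.6 CPM in WT 13 DAP and was listed at 0 in all 15 other libraries, so that its level was at least 448.5-fold higher than 3 counts per library would give in WT 48 h cold. *LBD13*, a LOB-domain transcription factor, had 5.64, 5.09 and 4.90 CPM in WT 13 DAP, against 0.378, 0.598 and 0.320 CPM in WT 48 h cold and 0, 0.213 and 0.322 CPM in WT 11 DAP. AT5G44260 (*TZF5*, a zinc finger protein) averaged 18.7 ± 7.90 CPM in WT 13 DAP, 1.95 ± 0.799 CPM in WT 48 h cold and 2.46 ± 0.937 CPM in WT 11 DAP (SD, n = 3). *CLE13*, a gene for a signal peptide, averaged 12.04 ± 0.855 CPM in WT 13 DAP, 1.49 ± 0.928 CPM in WT 48 h cold and 0.864 ± 0.155 CPM in WT 11 DAP (SD, n = 3). The remaining 5 were *GH3.1* (an auxin-responsive gene), *SRO4*, the VQ-motif gene AT4G39720, the C1-domain gene AT4G14980 and *AUR2*, and they averaged 6.37 to 93.1 CPM in WT 13 DAP.

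The count of *AUR2*, an Aurora kinase of dividing cells, moved against that of a gene on the other strand. *AUR2* had 114, 90.6 and 74.4 CPM in WT 13 DAP, against 7.58, 9.21 and 18.3 CPM in WT 48 h cold and 8.83, 11.1 and 9.63 CPM in WT 11 DAP. AT2G25890, an oleosin-family gene that overlaps *AUR2* by 877 bases, was listed at 0 in WT 13 DAP and in *myb107-2* 11 DAP, the groups in which *AUR2* was highest. AT2G25890 was listed at 34.9 to 42.95 CPM in *myb107-2* 48 h cold, at 20.2 to 32.9 CPM in WT 48 h cold and at 6.14 to 11.7 CPM in WT 11 DAP. The library kit marks strand, but whether the counting used strand is not given in the sources used here, so that reads of the pair cannot be told apart. Summed over the pair, the level was 74.4 to 114 CPM in WT 13 DAP, 29.4 to 51.2 CPM in WT 48 h cold and 16.6 to 20.5 CPM in WT 11 DAP. In all, 13 of the 53 genes overlap a gene on the other strand and none overlaps one on the same strand.

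**Figure D4:**
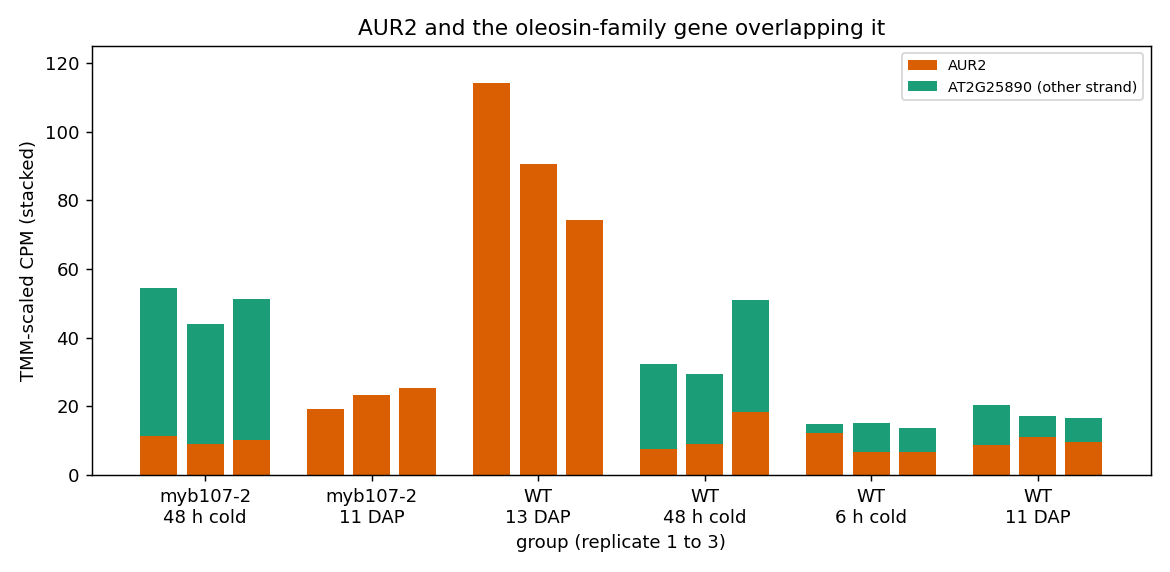
TMM-scaled CPM (vertical axis, stacked bars starting at 0) of *AUR2* and of AT2G25890 on the other strand in the 18 libraries. AT2G25890 is at 0 in the 3 *myb107-2* 11 DAP and the 3 WT 13 DAP libraries, where the whole bar is counted as *AUR2*.

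The cell wall and cell surface group held 6 genes. The chitinase-like gene AT4G19720 had 41.4, 39.8 and 53.6 CPM in WT 13 DAP and was listed at 0 in all 9 libraries of WT 48 h cold, WT 6 h cold and WT 11 DAP, which puts WT 13 DAP at least 934-fold higher than 3 counts per library in WT 48 h cold. AT4G25040 (*CASPL1F1*, related to the membrane proteins of the Casparian strip) had 27.2, 23.8 and 22.5 CPM in WT 13 DAP, against 0.622, 0.832 and 0 CPM in WT 48 h cold and 0.706, 0.360 and 2.47 CPM in WT 11 DAP. *EXPA9* (an expansin), *QRT1* (a pectin methylesterase), *ARPN* (plantacyanin) and the E6-like gene AT2G33850 averaged 6.59 to 15.5 CPM in WT 13 DAP and 0 to 1.17 CPM in WT 48 h cold.

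Other enzymes numbered 9. AT1G75280, which encodes an NmrA-like protein, had 113, 90.7 and 83.8 CPM in WT 13 DAP, against 10.8, 9.95 and 9.95 CPM in WT 48 h cold and 13.6, 18.1 and 11.97 CPM in WT 11 DAP. All 3 WT 48 h cold libraries were thus below all 3 WT 11 DAP libraries. *BGLU19*, a beta-glucosidase, averaged 23.2 ± 8.03 CPM in WT 13 DAP, 0.600 ± 0.373 CPM in WT 48 h cold and 0.160 ± 0.145 CPM in WT 11 DAP (SD, n = 3). *GDH3*, a glutamate dehydrogenase, averaged 17.2 ± 1.29 CPM in WT 13 DAP, 3.01 ± 0.562 CPM in WT 48 h cold and 2.31 ± 0.427 CPM in WT 11 DAP (SD, n = 3). *CORI3*, an aminotransferase-family gene known to respond to jasmonate, spread from 15.9 to 73.7 CPM over the WT 13 DAP libraries, and 1 WT 11 DAP library was at 14.9 CPM. *GulLO2* (an oxidase related to ascorbate synthesis), *CYP708A1* and the dehydrogenase-like gene AT2G29300 were listed at 0 in all libraries outside WT 13 DAP. *LUP5* (a triterpene synthase) and *SUS5* (a sucrose synthase) averaged 7.03 and 5.51 CPM in WT 13 DAP and were listed at 0 in WT 48 h cold.

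The 2 transporter genes of the major facilitator superfamily, AT2G18480 and AT5G42210, averaged 29.4 and 5.15 CPM in WT 13 DAP and 1.84 and 0.144 CPM in WT 48 h cold. The last 12 genes were AT3G53040, the dehydration-responsive AT3G54510, *MLP328*, the cupin gene AT1G50590, and 8 genes with no assigned function (AT1G12064, AT1G76230, AT2G21720, AT2G44010, AT4G11211, AT4G13680, AT4G29905 and AT4G40065). They averaged 5.21 to 38.9 CPM in WT 13 DAP and 0 to 5.01 CPM in WT 48 h cold.

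The comparison of *myb107-2* 48 h cold with *myb107-2* 11 DAP asked how the same genes differed in the mutant after 48 h of cold. It is the one comparison whose libraries the selection did not use. The seeds after 48 h of cold were also 48 h older, so age and cold cannot be told apart in it. By edgeR's quasi-likelihood test, calling genes with a Benjamini-Hochberg adjusted p no higher than 0.05 and at least a doubling or halving (1 on the log2 scale), 14 of the 53 genes (26.4%) rose, against 3.93% of the 26954 genes tested, and 2 fell, against 3.39%. Of the other 235 age-induced genes, 180 (76.6%) rose. The median difference in log2(mean CPM + 1) was 0.38 for the 53 genes, 1.87 for the other age-induced genes and 0.00 for all genes. Apart from the 5 dropped for overlap, the other age-induced genes were left out because they exceeded the cold limit in WT. The sets were thus split by their response to cold in WT, and nothing is read from the difference between them. The *myb107-2* 48 h cold and *myb107-2* 11 DAP libraries did not overlap for any of the 14 genes that rose. The same libraries gave the calls, so this is a description and adds no separate support. Each library is a pool of seeds, and the p-values measure the spread between 3 such pools a group. That spread was estimated in 1 fit to all 18 libraries, including the WT libraries that the selection used.

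Among the genes that rose, those of lipid bodies and lipid turnover were 5 of 8. AT1G70680 had 419, 317 and 358 CPM in *myb107-2* 48 h cold, against 59.2, 74.4 and 59.8 CPM in *myb107-2* 11 DAP (log2 fold change 2.502 ± 0.26 (SE), edgeR adjusted p = 1.85e-06). Its mean in *myb107-2* 48 h cold was 84.1% of that in WT 13 DAP. *DOX1* had 31.6, 21.4 and 30.4 CPM in *myb107-2* 48 h cold, against 5.30, 5.22 and 4.20 CPM in *myb107-2* 11 DAP (2.496 ± 0.23 (SE), edgeR adjusted p = 6.24e-07). *GRP17* (2.26 ± 0.33) and *HSD5* (1.03 ± 0.23) rose as well. *NPC5* had 1.73, 1.35 and 4.50 CPM in *myb107-2* 48 h cold and was listed at 0 in all *myb107-2* 11 DAP libraries, which is at least 61.5-fold higher than 3 counts per library (edgeR adjusted p = 0.00185). The *HSD5* value lay close to the fold limit and fell under it when *myb107-2* 11 DAP replicate 1, *myb107-2* 11 DAP replicate 2 or *myb107-2* 48 h cold replicate 1 was left out (log2 fold changes 0.98, 0.97 and 0.84).

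The other 9 genes that rose were of several roles. AT1G75280 had 55.1, 46.8 and 64.1 CPM in *myb107-2* 48 h cold, against 7.54, 13.7 and 12.1 CPM in *myb107-2* 11 DAP (log2 fold change 2.33 ± 0.20 (SE), edgeR adjusted p = 3.86e-07). AT4G25040 (*CASPL1F1*) had 34.2, 20.4 and 33.7 CPM in *myb107-2* 48 h cold, against 1.81, 3.02 and 1.41 CPM in *myb107-2* 11 DAP (3.84 ± 0.45 (SE), edgeR adjusted p = 1.61e-05). *GDH3* had 29.5, 16.8 and 22.7 CPM in *myb107-2* 48 h cold, against 1.48, 1.53 and 2.46 CPM in *myb107-2* 11 DAP (3.66 ± 0.36 (SE), edgeR adjusted p = 1.15e-06). The means of *GDH3* and AT4G25040 in *myb107-2* 48 h cold were 133% and 120% of those in WT 13 DAP, and these were the only 2 of the 14 genes above the WT 13 DAP mean. *BGLU19*, at 2.22, 1.35 and 3.19 CPM in *myb107-2* 48 h cold, was listed at 0 in all *myb107-2* 11 DAP libraries and so was at least 54.8-fold higher than 3 counts per library. *LBD13* rose to 1.02 ± 0.294 CPM in *myb107-2* 48 h cold, against 0.0420 ± 0.0727 CPM in *myb107-2* 11 DAP (SD, n = 3; edgeR adjusted p = 0.00184). AT1G76230 and AT2G44010, both without an assigned function, the transporter gene AT5G42210 and *GPAT6* completed the 14. *GPAT6* (2.42 ± 0.56 (SE)) did not pass without *myb107-2* 48 h cold replicate 2 (edgeR adjusted p = 0.0761), and AT5G42210 did not when tested by DESeq2 (adjusted p = 0.151). In the legacy mode of edgeR neither AT5G42210 (adjusted p = 0.0923) nor AT2G44010 (adjusted p = 0.107) passed.

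The genes that fell were AT1G51440 and *AUR2*. AT1G51440 had 0.670, 0.687 and 0.353 CPM in *myb107-2* 48 h cold, against 1.78, 2.12 and 1.83 CPM in *myb107-2* 11 DAP (log2 fold change -1.75 ± 0.54 (SE), edgeR adjusted p = 0.0338), and it did not pass when any 1 of the 6 libraries was left out (adjusted p between 0.0598 and 0.137). *AUR2* had 11.5, 9.10 and 10.3 CPM in *myb107-2* 48 h cold, against 19.2, 23.4 and 25.5 CPM in *myb107-2* 11 DAP (-1.14 ± 0.27 (SE), edgeR adjusted p = 0.00665). The sum of *AUR2* and AT2G25890 ran the other way, with 44.0 to 54.5 CPM in *myb107-2* 48 h cold and 19.2 to 25.5 CPM in *myb107-2* 11 DAP.

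**Figure D5:**
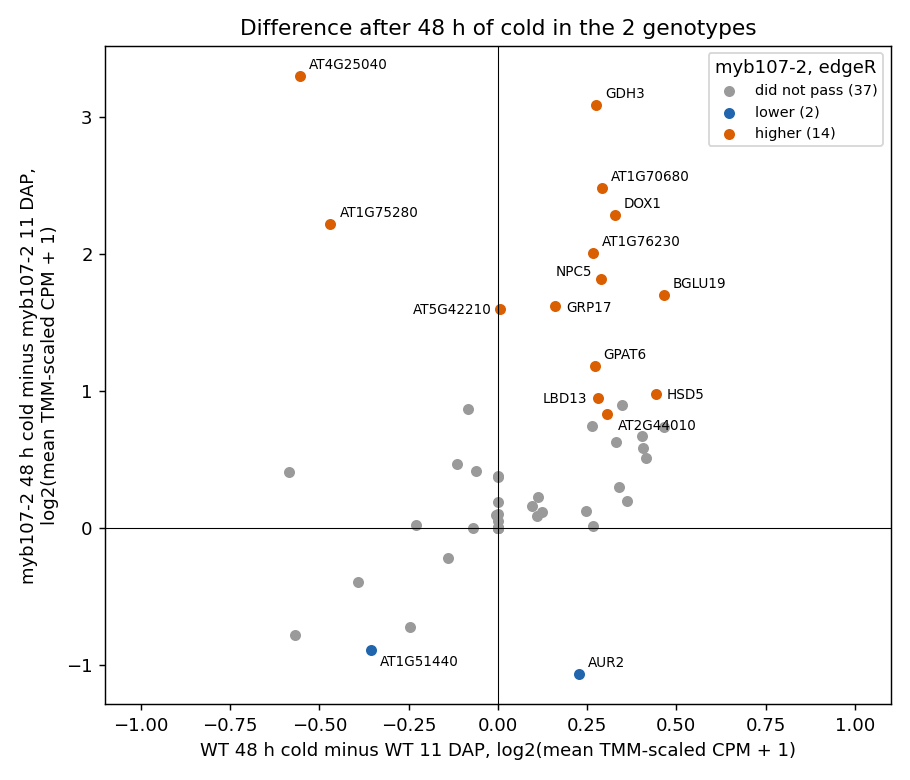
Difference after 48 h of cold in *myb107-2* (vertical axis) against that in WT (horizontal axis, limited by the selection), both as differences of log2(mean TMM-scaled CPM + 1), for the 53 genes. Colours give the edgeR result in *myb107-2*: 14 genes higher, 2 lower and 37 that did not pass; AT4G25040 and AT1G75280 lie above 2 in *myb107-2* and left of 0 for WT.

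Set beside WT 13 DAP, the group the selection required to be high, the mean in *myb107-2* 48 h cold was under 10% for 31 of the 53 genes, which is a description only. Of the 7 surface polyester and phenolic genes, *GPAT6* alone passed, and it reached 6.9% of its WT 13 DAP mean. *CYP86A2* averaged 11.2 ± 3.63 CPM in *myb107-2* 48 h cold and 13.1 ± 1.48 CPM in *myb107-2* 11 DAP (SD, n = 3), and *FACT*, AT3G58550, *MYB67*, *GulLO2*, *CYP708A1* and AT2G29300 were listed at 0 in both groups. *NPC4* averaged 9.84 ± 6.16 CPM in *myb107-2* 48 h cold and 4.93 ± 0.927 CPM in *myb107-2* 11 DAP (SD, n = 3; edgeR adjusted p = 0.0656). On the list of suberin genes, 9 of 23 with a count rose, neither *FAR4* nor *FACT* being among the 9, where 3.93% of all genes tested rose and 3.39% fell. On the LEA list 12 of 26 rose and on the oil body list 3 of 12, *HSD5* included. No gene of these 3 lists fell by edgeR in this comparison. Against WT 48 h cold, 11 genes of the suberin list passed as lower in *myb107-2* 48 h cold and 0 as higher. Of all genes tested, 1.03% were lower and 0.586% higher there. The suberin list summed to 584 to 738 CPM in *myb107-2* 48 h cold and 2075 to 2505 CPM in WT 48 h cold.

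Storage transcripts and some of the markers differed in this comparison, while no embryo marker passed in either direction. The 13 storage protein genes summed to 82213 to 112507 CPM in *myb107-2* 48 h cold and 36964 to 44265 CPM in *myb107-2* 11 DAP, and 9 of them rose and 1 fell by edgeR. The 8 endosperm markers, of which *EPR1* gave nearly all, summed to 18744 to 23957 CPM in *myb107-2* 48 h cold and 10764 to 16045 CPM in *myb107-2* 11 DAP. *EPR1* itself did not pass, and the markers that passed both fell: *SUC5*, a sucrose transporter gene, averaged 15.1 ± 0.423 CPM in *myb107-2* 48 h cold and 52.0 ± 13.9 CPM in *myb107-2* 11 DAP, and *ALE1*, a protease gene, averaged 1.63 ± 0.853 CPM in *myb107-2* 48 h cold and 5.01 ± 0.836 CPM in *myb107-2* 11 DAP (SD, n = 3). The 10 embryo markers summed to 28.1 to 31.8 CPM in *myb107-2* 48 h cold and 19.0 to 22.3 CPM in *myb107-2* 11 DAP, nearly all of it *CUC1*, and the 11 seed coat markers to 1702 to 1951 CPM in *myb107-2* 48 h cold and 1876 to 2724 CPM in *myb107-2* 11 DAP, with 1 seed coat marker higher and 2 lower by edgeR. Their part in the result was not tested.

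The comparison of *myb107-2* 48 h cold with WT 48 h cold uses the WT libraries that the selection required to be low, and its values are a description. By edgeR 11 of the 53 genes (20.8%) passed as higher in *myb107-2*, where 0.586% of all genes tested did, and nothing is read from that share. AT1G75280 had 55.1, 46.8 and 64.1 CPM in *myb107-2* 48 h cold, against 10.8, 9.95 and 9.95 CPM in WT 48 h cold (log2 fold change 2.43). AT1G70680 (2.55), AT4G25040 (5.71), *DOX1* (2.16), *GDH3* (2.96) and *GRP17* (2.20) were also higher. The remaining 5 each failed to pass under some alternative: AT1G76230 under 1, *HSD5* and AT5G42210 under 3 each, and AT2G44010 and *NPC5* under 6 each. No gene was lower by edgeR or by DESeq2 (1.03% of all genes by edgeR), and 2 were lower at an unadjusted p under 0.05. Leaving out 1 library at a time gave 8 to 12 genes higher.

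In *myb107-2* 11 DAP against WT 11 DAP, which shares the WT 11 DAP libraries with the selection and is likewise a description, *AUR2* alone passed as higher by edgeR (1.89% of the 53 genes, where 0.148% of all genes tested did). *AUR2* had 19.2, 23.4 and 25.5 CPM in *myb107-2* 11 DAP, against 8.83, 11.1 and 9.63 CPM in WT 11 DAP (log2 fold change 1.201). AT2G25890 on the other strand was at 0 in *myb107-2* 11 DAP, against 6.14 to 11.7 CPM in WT 11 DAP, and the summed level was 19.2 to 25.5 CPM in *myb107-2* 11 DAP and 16.6 to 20.5 CPM in WT 11 DAP. The *AUR2* call was lost in 5 of the 6 fits that left out 1 library, all but that without *myb107-2* 11 DAP replicate 1. No gene was lower by edgeR (0.553% of all genes), with 2 lower at an unadjusted p under 0.05 and 1 lower by DESeq2. The median difference in log2(mean CPM + 1) was 0.00 for the 53 genes and for all genes.

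The values after 6 h of cold are a description too, since the selection used the WT 11 DAP libraries. Its age limit favours genes low in these libraries, and its cold limit favours genes high in them. By edgeR 5 of the 53 genes (9.43%) passed as lower in WT 6 h cold, where 1.18% of all genes tested did, and nothing is read from that share. *DOX1* had 1.06, 1.77 and 1.25 CPM in WT 6 h cold, against 4.29, 3.57 and 6.48 CPM in WT 11 DAP (log2 fold change -1.79). *HSD5* had 2.59, 3.48 and 4.28 CPM in WT 6 h cold, against 6.14, 8.58 and 11.5 CPM in WT 11 DAP (-1.32). *CYP86A2* had 7.11, 7.28 and 5.58 CPM in WT 6 h cold, against 18.5, 24.3 and 20.7 CPM in WT 11 DAP (-1.67). In all 3 genes the WT 6 h cold libraries lay below the WT 11 DAP libraries. AT4G25040 was listed at 0 in all WT 6 h cold libraries, against 0.706, 0.360 and 2.47 CPM in WT 11 DAP. AT1G70680 had 23.0, 27.3 and 23.9 CPM in WT 6 h cold, against 42.9, 48.2 and 61.5 CPM in WT 11 DAP (-1.04).

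No gene passed as higher at 6 h by edgeR (0.631% of all genes tested), although *GRP17* and *QRT1* were higher at an unadjusted p under 0.05 and 1 gene passed as higher by DESeq2. Of the 53 genes, 34 were listed at 0 in WT 6 h cold replicate 1, against 22 and 20 in replicates 2 and 3, and 11 were at 0 in replicate 1 alone. Without replicate 1, 4 genes passed as lower. AT1G70680 did not pass without WT 6 h cold replicate 1, 2 or 3 (log2 fold changes -0.98, -1.12 and -1.01) or without WT 11 DAP replicate 3 (-0.88), and *HSD5* and AT4G25040 did not pass in a fit to the 6 libraries alone. The median difference in log2(mean CPM + 1) after 6 h was -0.13 for the 53 genes, with 34 genes lower and 7 higher, against -0.02 for the other 235 age-induced genes and 0.00 for all genes.

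The 250 bases before each annotated start were searched for 15 sequence motifs on both strands, in the TAIR10.1 reference of RefSeq. The RY motif CATGCA, known from seed maturation promoters, was present upstream of 11 of the 52 protein-coding genes (21.2%), against 8.44% of 27420 protein-coding genes. The longer form CATGCATG, which contains CATGCA, was present in 3.85%, against 0.777%. ACGTG, the core of the ABA response element, was present in 36.5%, against 22.9%, and ACGTGGC, which contains this core, in 9.62%, against 3.37%. Of the other forms with this core, ACGTGTC was present in 1.92%, against 3.68%, and the G-box CACGTG in 3.85%, against 6.49%. CCGAC, the core of the cold-responsive DRE element, was present in 9.62%, against 12%, its longer form GCCGAC in 1.92%, against 2.56%, and the AC element ACCNACC in 3.85%, against 6.09%. TATAAA was present in 61.5%, against 47.3%, the evening element AAATATCT in 9.62%, against 4.79%, and the NAC core in 3.85%, against 0.766%. The W-box core TTGAC was present in 40.4%, against 44.9%, the heat shock element GAANNTTC in 7.69%, against 9.56%, and the E-box CANNTG, of which CACGTG is 1 form, in 38.5%, against 55.3%. Of the 14 genes that rose in *myb107-2* 48 h cold, 5 had CATGCA (*BGLU19*, *GRP17*, *HSD5*, *NPC5* and *LBD13*), as did 6 of the other 38 genes, while ACGTG was present in 5 of the 14 and in 14 of the other 38. These matches are descriptions of sequence and were not tested.

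Upstream windows are shown for 3 genes with several motif matches that rose in *myb107-2* 48 h cold, and for *FACT*, which was at 0 outside WT 13 DAP. They read 5′ to 3′ on the strand of the gene, and capitals mark CATGCA and ACGTG on either strand, some of them overlapping. *HSD5* lies on the plus strand (chr4:6268023-6268272), *GRP17* on the minus strand (chr5:2384526-2384775), *NPC5* on the minus strand (chr3:848298-848547) and *FACT* on the plus strand (chr5:25449061-25449310).
HSD5: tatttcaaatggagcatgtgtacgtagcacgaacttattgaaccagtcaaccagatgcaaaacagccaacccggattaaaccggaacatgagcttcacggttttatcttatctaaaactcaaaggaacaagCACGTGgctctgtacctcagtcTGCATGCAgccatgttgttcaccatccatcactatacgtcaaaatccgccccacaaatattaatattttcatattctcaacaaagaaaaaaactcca
GRP17: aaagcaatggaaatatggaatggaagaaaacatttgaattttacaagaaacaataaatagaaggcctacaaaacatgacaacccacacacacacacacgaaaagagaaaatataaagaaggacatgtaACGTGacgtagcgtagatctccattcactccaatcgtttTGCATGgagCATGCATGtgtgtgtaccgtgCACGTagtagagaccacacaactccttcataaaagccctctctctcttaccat
NPC5: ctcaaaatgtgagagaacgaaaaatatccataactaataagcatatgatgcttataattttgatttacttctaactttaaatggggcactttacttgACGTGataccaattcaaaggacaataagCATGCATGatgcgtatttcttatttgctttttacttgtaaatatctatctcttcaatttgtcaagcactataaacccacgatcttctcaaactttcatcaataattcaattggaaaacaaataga
FACT: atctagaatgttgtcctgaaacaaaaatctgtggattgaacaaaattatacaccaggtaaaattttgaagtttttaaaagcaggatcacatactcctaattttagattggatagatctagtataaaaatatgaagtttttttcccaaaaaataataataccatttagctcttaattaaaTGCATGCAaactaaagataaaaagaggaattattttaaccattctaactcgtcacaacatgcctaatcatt
*GRP17* holds 3 matches to CATGCA and 2 to ACGTG, *HSD5* 2 of each, *NPC5* 2 and 1, and *FACT* 2 and none. No match says only that the letters are missing from this window.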

How the data were processed

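Per the paper's methods, poly(A) RNA was sequenced with a stranded kit. The authors trimmed the reads, mapped them with HISAT2 and derived with StringTie the deposited estimated counts for each gene, which are integers and were not normalized. Tool versions, genome build and annotation are not given in the sources used here. All gene identifiers used were found in TAIR10.1 (RefSeq), which gave positions, overlaps and upstream sequence. In 5 files, 22 nuclear genes hold dates and were left out. Rows without a nuclear identifier held 0.454% to 2.13% of each total and entered neither sums nor tests.

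Counts were TMM-scaled and tested with edgeR 4.0.16 (R 4.3.3), in 1 quasi-likelihood fit to all 18 libraries in 6 groups, over the 26954 genes with a count. A gene was called where the adjusted p was 0.05 or less and the fitted log2 change was 1 or more in either direction. The scripts were tested on simulated data. Alternatives were DESeq2 1.42.0, other scalings and count filters, each library left out, and other limits for the selection. The 53 genes, the gene lists and the roles were chosen with earlier results of these data known. Genes named were those with the highest level or difference at 13 DAP, those with the smallest p-values, transcription factors, members of the lists, and genes nearest the limits. The other genes of the 53 were added after their values were seen, and annotation classes took the first matching word. A count of 3 was taken as the limit of detection (0.0315 to 0.101 CPM per library on the TMM scale), which covers counting error only.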

Additional observations from a re-analysis of the deposited data

Results flagged for a closer look

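AT1G75280 differed after 48 h of cold in opposite directions in the genotypes: all *myb107-2* 48 h cold libraries lay above all *myb107-2* 11 DAP libraries (difference in log2(mean CPM + 1) of 2.22), and all WT 48 h cold libraries lay below all WT 11 DAP libraries (-0.47). The gap between these differences was 2.69. The difference between the genotypes was not tested, and the WT side of it was limited by the selection of the genes.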

How the results depend on the processing

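The number of genes selected was 53, and it was 106 with an age limit of 1.5, 32 with 2.5, 25 with a cold limit of 0, 89 with 1, 76 with a pseudocount of 0.5, 34 with a pseudocount of 5 and 94 with TMM-scaled library sizes. Of the 53 genes, 46 were selected with a pseudocount of 0.5 and 18 with a pseudocount of 5. Without all genes of the ribosomal RNA units in the column sums, an alternative chosen after seeing the data, it was 76. Leaving out 1 library gave 38 to 76. In *myb107-2* 48 h cold against *myb107-2* 11 DAP, leaving out 1 library gave 13 to 15 genes higher and 1 lower, and requiring at least 10 counts in every library, which removes genes at 0, gave 5 higher and 1 lower. In *myb107-2* 48 h cold against WT 48 h cold, that filter gave 5 higher, edgeR's legacy method gave 7, and leaving out 1 library gave 8 to 12. In WT 6 h cold against WT 11 DAP, DESeq2 gave 11 lower and 1 higher, the filter gave 1 higher, the fit to the 6 libraries alone gave 3 lower, and leaving out 1 library gave 4 to 7 lower. In *myb107-2* 11 DAP against WT 11 DAP, the legacy method gave 0 higher, DESeq2 gave 1 lower, and leaving out 1 library gave 0 to 1 higher. The causes were not tested. Of 445 values of the called genes under these alternatives, none changed direction, 399 still passed and 46 did not.

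Same-numbered libraries did not deviate together (correlations of -0.206 to 0.067), so the numbers were not taken to pair the samples. With the replicate block, *myb107-2* 48 h cold against *myb107-2* 11 DAP gave 14 genes higher and 1 lower, *myb107-2* 11 DAP against WT 11 DAP gave 0 higher, WT 6 h cold against WT 11 DAP gave 6 lower and *myb107-2* 48 h cold against WT 48 h cold gave 12 higher.

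Depth limits the genes listed at 0: a fold against such a group is a lower bound only if the 0 stands for fewer than 3 counts and is not a failed estimate.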
